A study of Mus musculus with 4 samples.

Results

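The genes described here were chosen by symbol, and most encode parts of the nuclear pore or receptors that carry cargo through it. They were all protein-coding mouse genes whose symbol begins with Nup, Ipo or Xpo followed by a digit, or with Kpna, Kpnb, Tnpo or Ranbp: 51 of the 21900 protein-coding genes in a RefSeq table of GRCm38.p6, the assembly behind mm10. By symbol, 21 are pore genes (Nup), 17 are importin genes (Ipo, Kpna, Kpnb and Tnpo), 5 are exportin genes (Xpo) and 8 are Ran-binding protein genes (Ranbp). The study used FLASH, a form of CLIP-seq in which RNA crosslinked to a protein by ultraviolet light is pulled down with an antibody and sequenced, in WT26, a line of embryonic stem (ES) cells from a male mouse, of strain C57BL/6x129sV, which grows without feeder cells in serum and leukemia inhibitory factor. In 2 samples the pulldown used a rabbit antibody to DHX9, an RNA helicase, and in the other 2 rabbit IgG; the labels call the members of each pair biological replicates A and B. All 4 samples came from this 1 line, and the labels name no treatment or mutation. The deposited data are 1 list of 59563 peaks for the whole series, each given by coordinates and strand, with no score. Of these, 830 peaks (1.39%) had their midpoint inside a gene of the pore and transport set.

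The nuclear pore is a ring of nucleoporin proteins set in the nuclear envelope. Its scaffold consists of an outer Y-shaped complex and an inner ring, its channel is lined by proteins rich in phenylalanine-glycine repeats, and filaments reach into the cytoplasm while a basket hangs into the nucleus. Importins and exportins bind cargo and pass through this channel, and the small GTPase Ran sets the direction, since its GTP form releases cargo from importins and loads exportins inside the nucleus. DHX9 is a helicase that unwinds RNA duplexes and is itself a nuclear protein that shuttles through the pore.

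The list holds no height, p-value or count per sample, so no spread between pulldowns can be given and the IgG background cannot be printed beside a value. How the IgG samples entered the calling is not stated. Differences between gene groups below are descriptions without a test, and the 95% Wilson intervals cover counting error only. The amount of each RNA in the cells was not measured here, so that how often a transcript is bound and how much of it is present cannot be told apart. The ES cell markers Pou5f1, Sox2, Nanog, Esrrb, Sall4 and Tdh held 6 to 64 peaks each, although all 6 in Sox2 and 19 of 38 in Tdh also lay in another gene. Among markers of feeder fibroblasts, Col1a1, Col1a2, Col3a1 and Thy1 held none and the fibronectin gene Fn1 held 63. Afp, Cdx2, Eomes, Gata6, T and Neurod1, which mark differentiated lineages, held none.

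Most genes of the pore and of its transport receptors held DHX9 peaks. At least 1 peak lay in 45 of the 51 genes (88.2%, 95% interval 76.6 to 94.5%), where 22.8% of all protein-coding genes held one. The share was 19 of 21 for pore genes (90.5%, 71.1 to 97.3%), 15 of 17 for importin genes (88.2%, 65.7 to 96.7%), 5 of 5 for exportin genes (100%, 56.6 to 100%) and 6 of 8 for Ran-binding protein genes (75%, 40.9 to 92.9%). The intervals of the 4 groups overlap throughout, and each lies above the share over all protein-coding genes. At least 3 peaks were present in 37 of the 51 genes, against 14.8% of all protein-coding genes, and at least 20 in 13, against 3.75%. The 6 genes without a peak were Nup37 of the Y complex, Nup62cl, Ipo8, Kpna7, Ranbp3l and Ranbp6.

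**Figure D1:**
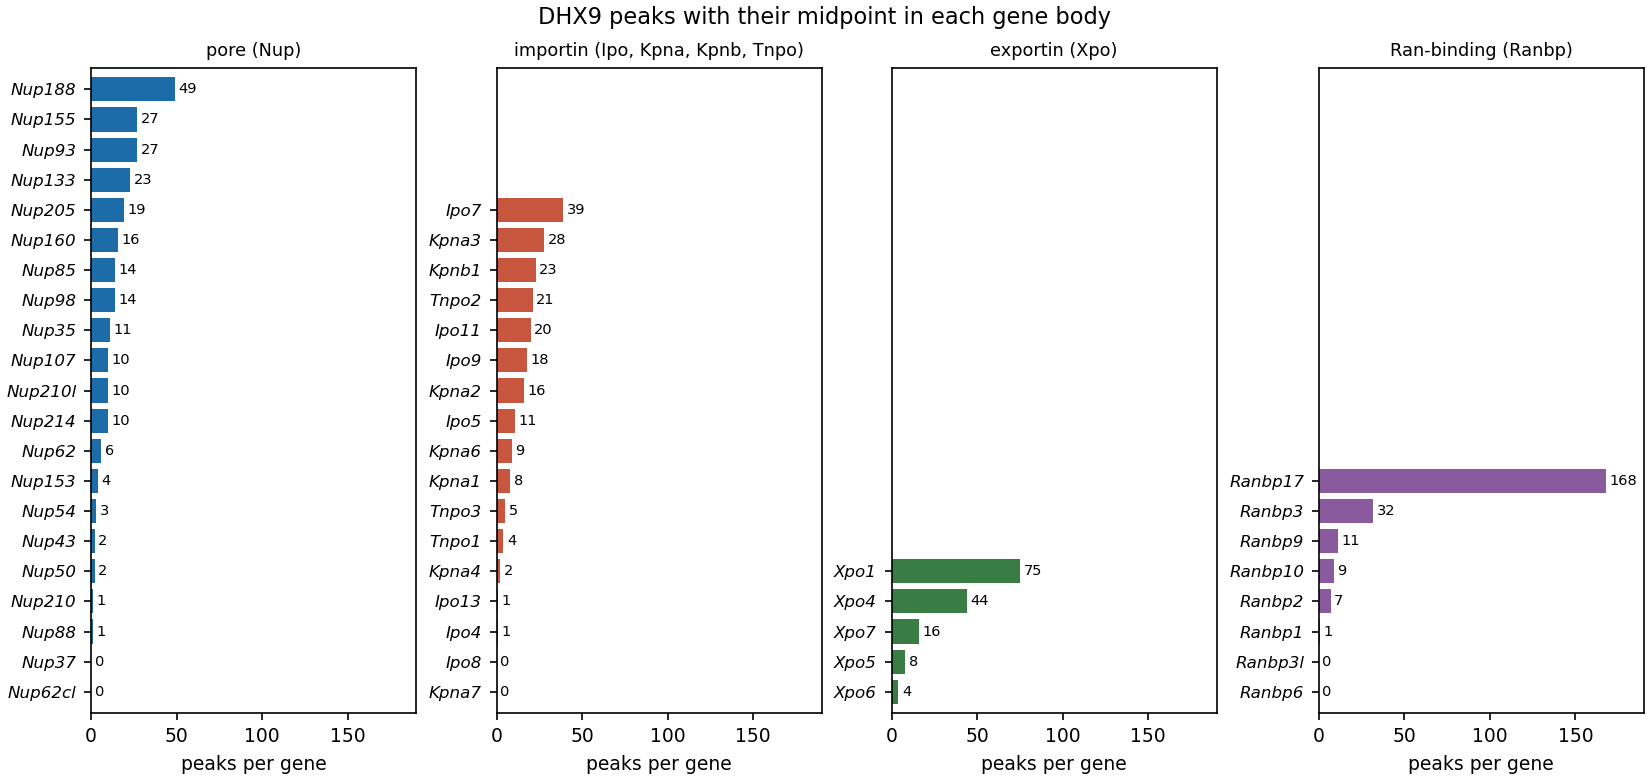
Number of DHX9 peaks with their midpoint in each of the 51 genes, by group; bars start at 0 and the number stands at each bar. Ranbp17 held 168 peaks, Xpo1 75 and Nup188 49, while 6 genes held none.

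The genes are longer than most, with a median of 50.6 kb against 17.1 kb for all protein-coding genes, and long genes hold peaks more often. Within bands of gene length the shares were apart as well. Under 20 kb, 8 of 9 genes held a peak, where the share over all protein-coding genes was 13.9%. From 20 to 50 kb it was 14 of 16 against 32.8%, from 50 to 100 kb 17 of 20 against 37%, and at 100 kb and over 6 of 6 against 30.6%. Without matching for length, genes of the set with a peak held a median of 11 peaks, against 5 for all protein-coding genes with a peak. By band, the median over all genes of the set, those without a peak included, was 2 under 20 kb, against 3 for all protein-coding genes with a peak. It was 9.5 against 6 from 20 to 50 kb, 10.5 against 6 from 50 to 100 kb, and 18 against 5 at 100 kb and over. Density was closer. The median was 0.196 peaks per kb in the 45 genes with a peak, against 0.176 in all 4989 protein-coding genes with a peak. Among genes with a peak, pore genes had a median of 0.237 per kb (quartiles 0.114 and 0.411), importin genes 0.215 (0.0840 and 0.595), exportin genes 0.196 (0.147 and 0.485) and Ran-binding protein genes 0.144 (0.138 and 0.454). These quartile ranges overlap for every pair of groups, and the order of pore and importin genes depends on how peaks are counted. With peaks in no other gene only, the medians were 0.152 in pore genes and 0.215 in importin genes, and with peaks within 50 bases merged they were 0.214 and 0.215 per kb in the same groups.

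**Figure D2:**
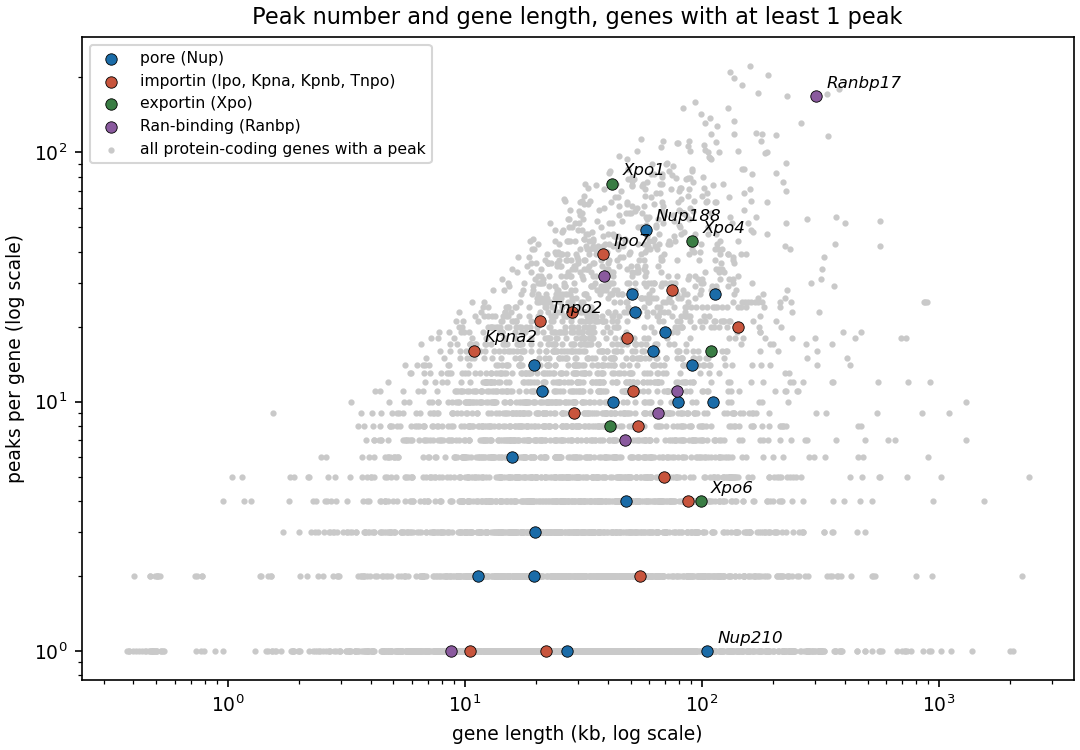
Peaks per gene against gene length, both on log scales, for genes with at least 1 peak; coloured points are the 45 pore and transport genes and grey points all 4989 protein-coding genes with a peak. Xpo1 and Kpna2 lie near the upper edge for their length, and Nup210 holds 1 peak in 105 kb.

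Within the pore, the inner ring stood out by number. Its 5 genes all held peaks, 11 to 49 each and 133 together, or 0.425 per kb. Density ranged from 0.238 per kb in Nup93 to 0.847 in Nup188, which held more of these peaks than any other gene of the ring, 49 of 133. Nup188, which encodes a large scaffold protein of this ring, held 49 peaks over 57.9 kb (chromosome 2, 30286407 to 30344266), all on its own plus strand, and ranked 207th of all protein-coding genes by peak number. Its peaks were dense from the first kb up to 35.2 kb, where the longest empty stretch, of 10.3 kb, began, and 5 lay in the last 20%. Nup155, a scaffold protein that links the ring to the membrane, held 27 peaks over 50.6 kb (chromosome 15, 8109263 to 8159859) in groups: 10 lay in the first 20% and 8 in the last 20%, and the stretch from 18.4 to 34.8 kb was empty. Nup93, which anchors the ring, also held 27, spread over 113.5 kb (chromosome 8, 94214564 to 94328100); none lay before 16.3 kb or after 79.3 kb. Nup205, a relative of Nup188, held 19, of which 15 sat in a single run between 19.4 and 24.3 kb. Nup35, a membrane-binding ring protein, held 11.

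The Y complex held fewer. Its 6 genes had 65 peaks, or 0.297 per kb, and ranged from 0 to 23. By gene, the densities overlap those of the inner ring: Nup85, at 0.718 per kb, was denser than every inner ring gene but Nup188. Nup133 held 23 over 52.2 kb (chromosome 8, 123897114 to 123949265), all on its minus strand. Of these, 16 lay in the last 20% of the gene and 3 in the first 20%, with none between 6.91 and 32.2 kb. Nup160 held 16, Nup85 14, Nup107 10 and Nup43 2, while Nup37 held none. In Nup85 all but 1 peak fell between 20 and 60% of the gene, and in Nup107 7 of 10 fell in the first 40%. Nup98, whose product is cut into the channel protein Nup98 and the Y complex protein Nup96, held 14 over 90.8 kb.

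The other Nup genes held 0 to 10 peaks each. The channel genes Nup62 and Nup54 held 6 and 3. The cytoplasmic filament genes Nup214 and Nup88 held 10 and 1, and the basket genes Nup153 and Nup50 held 4 and 2. In Nup214 the 10 peaks formed a group of 4 between 3.76 and 5.06 kb and a group of 6 from 64.2 kb on, with 59.2 kb between them. Nup210, which encodes a large membrane protein of the pore, held 1 peak in 105 kb and was the least dense of the 45 genes at 0.00950 per kb.

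Nup210l, a relative of Nup210, differed in kind. All 10 of its peaks were on the minus strand and lay within 4.99 kb of the edge of the gene that borders Rps27, a ribosomal protein gene annotated on the minus strand (chromosome 3, 90212667 to 90213648). The edges of the genes are 515 bases apart, and 2 further minus-strand peaks lie between them, so that a run of 12 peaks extends from beside Rps27 into Nup210l. Rps27 itself held no peak. The other 106 kb of Nup210l held no peak. The strand of Nup210l is not in the tables used here, so whether these peaks are sense or antisense to it was not tested. Without Nup210l, 18 of 20 pore genes would hold a peak.

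Among the import genes, peaks were spread over adaptors and carriers alike. The importin alpha adaptors, which read classical nuclear localization signals, held 63 peaks in 5 of 6 genes. Kpna3 held 28 over 74.8 kb (chromosome 14, 61365186 to 61439947), all on the minus strand, with 17 of them in 10 kb from 15.2 kb on. Kpna2 held 16 in only 10.9 kb (chromosome 11, 106988629 to 106999525), or 1.47 per kb, and peaks covered 39.8% of its body. Kpna6, Kpna1 and Kpna4 held 9, 8 and 2. All 9 peaks of Kpna6 lay within 5.40 kb of the 5′ end. Kpnb1, the importin beta that these adaptors dock on, held 23 over 28.2 kb (chromosome 11, 97159710 to 97187892), 0.816 per kb, of which 22 were on its own minus strand.

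The other members of the importin beta family ranged from 0 to 39 peaks. Ipo7, which imports ribosomal proteins and linker histone, held 39 over 38.3 kb (chromosome 7, 110018315 to 110056609), all on the plus strand, at 1.02 per kb. Of these, 22 lay in 10 kb from the peak nearest the 5′ end on, and 2 overlapped the snoRNA genes Gm25636 and Snora23 inside it. Ipo11 held 20 over 142.5 kb (chromosome 13, 106794439 to 106936958), with 12 in the first 20%. Ipo9, a carrier of core histones, held 18, of which 11 fell in 10 kb from 30.05 kb on. Ipo5, which also carries ribosomal proteins, held 11, and Ipo13 and Ipo4 held 1 each. Among the transportins, Tnpo2 held 21 over 20.71 kb (chromosome 8, 85036873 to 85057585), 1.01 per kb. Tnpo3, the carrier of SR splicing factors, held 5 and Tnpo1 held 4.

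The exportin genes held 147 peaks, most of them in Xpo1 and Xpo4. Xpo1 encodes CRM1, the main export receptor for proteins with leucine-rich signals. It held 75 peaks over 41.7 kb (chromosome 11, 23255909 to 23297597), all on its plus strand. At 1.80 per kb it was the densest gene of the set, and its density ranked 58th among 2330 protein-coding genes, those that span 10 kb or more and hold 5 peaks or more. Peaks ran along the whole gene, covered 49.9% of it, and left no stretch of more than 2.82 kb empty. With peaks within 50 bases merged, Xpo1 had 54 peaks, or 1.30 per kb, and was still ahead of Kpna2 at 1.01. Xpo4, the exporter of the translation factor eIF5A, held 44 over 90.7 kb (chromosome 14, 57577521 to 57668232), 43 of them on the minus strand. They came in groups, with 20 in the first 20% and none between 15.4 and 40.6 kb. Xpo7 held 16, and Xpo6, which exports actin, held 4 in 98.8 kb. Xpo5, the exporter of microRNA precursors, held 8, of which 7 lay within 7.98 kb of the 5′ end.

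Of the 228 peaks in Ran-binding protein genes, 168 were in Ranbp17, a relative of exportin 7. It is the longest gene of the set at 302 kb (chromosome 11, 33211794 to 33513784). All of its peaks were on its minus strand, and by number it ranked 9th of all protein-coding genes. In density, at 0.556 per kb, it ranked 865th of the same 2330. The peaks fell in blocks: 55 in the first 20%, 32 in the next 20%, 59 in the middle 20%, 1 in the following 20% and 21 in the last 20%, with an empty stretch of 45.4 kb between 174.3 and 219.7 kb. Ranbp3, a cofactor of Xpo1, held 32 over 38.5 kb (chromosome 17, 56673225 to 56711769), 0.830 per kb. The other genes of this group held few. Ranbp9 and Ranbp10, subunits of a ubiquitin ligase complex, held 11 and 9. Ranbp2, which despite its symbol encodes the giant nucleoporin of the cytoplasmic filaments, held 7 in 47.3 kb, the first of them 29.95 kb from the 5′ end. Ranbp1, which helps Ran to hydrolyse GTP, held 1, which overlapped the snoRNA gene Gm25777.

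Related genes often differed in peak number. Ranbp17 held 168 peaks (0.556 per kb) and its relative Xpo7 16 (0.147 per kb). Ipo7 held 39 and Ipo8, its closest relative, held none in 62.2 kb. Kpna2 held 16 and Kpna7, an importin alpha of oocytes and early embryos, held none in 25.9 kb. Kpna3 held 28 and Kpna4 held 2 in 54.9 kb. Tnpo2 held 21 in 20.71 kb and Tnpo1 held 4 in 87.4 kb. Ipo5 held 11 and Ranbp6, a short gene of 4.87 kb that encodes a relative of importin 5, held none. Kpna1 and Kpna6 were the exception in number, with 8 and 9 peaks, although their densities were 0.149 and 0.313 per kb. In every pair the gene with more peaks was also the denser one. The pseudogenes Kpna2-ps and Ranbp2-ps2 held no peak. The sources used here do not give how reads that match several places were treated.

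**Figure D3:**
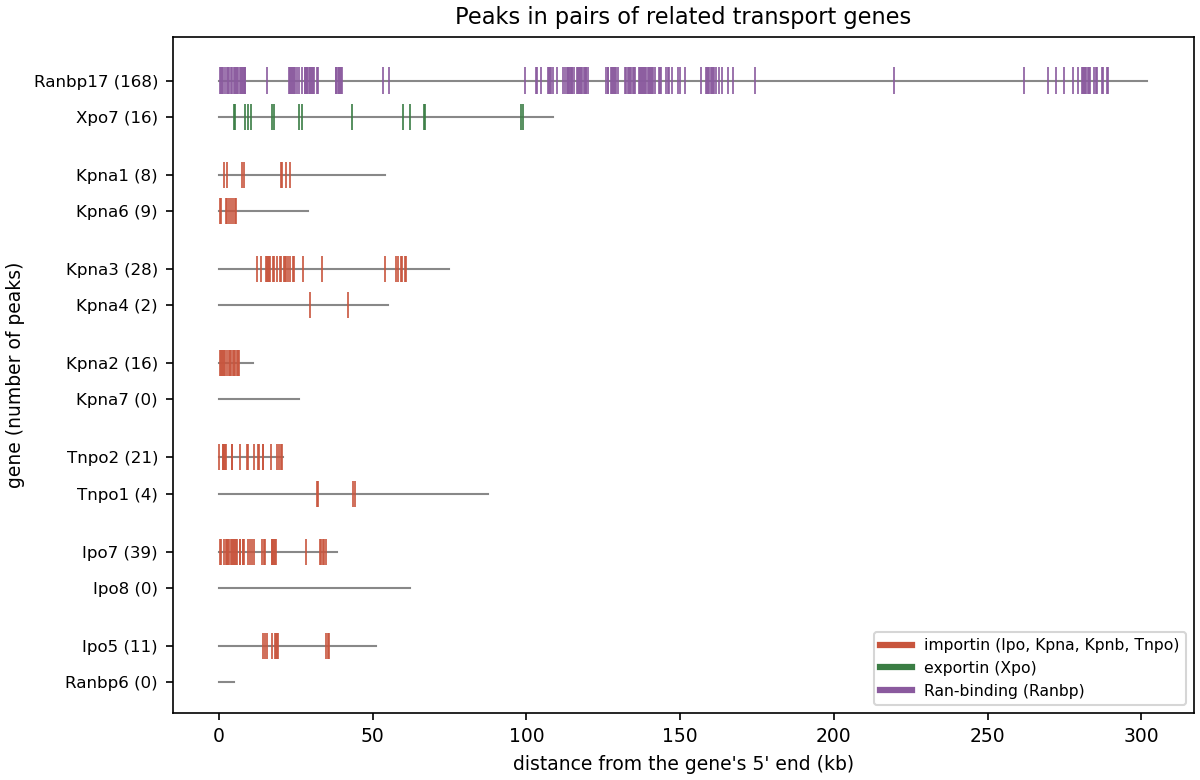
Peaks along 7 pairs of related transport genes, by distance of the peak midpoint from the gene's 5′ end in kb; grey lines show the gene body and numbers the peaks per gene. Ranbp17, Kpna3, Kpna2, Tnpo2, Ipo7 and Ipo5 held more peaks than their relatives, and Kpna1 and Kpna6 held 8 and 9.

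Positions along the gene were read from the 5′ end, by the strand of the RefSeq promoter table for 40 of the 51 genes and by the strand of most peaks for the other 11. Each gene with at least 5 peaks counted equally, which left 33. On average, 28.6% of a gene's peaks lay in the first 20% of its length in pore genes (SD 25.7, 13 genes), 37.1% in importin genes (SD 27.8, 11 genes), 51.5% in exportin genes (SD 25.1, 4 genes) and 14.4% in Ran-binding protein genes (SD 15.4, 5 genes), against 26.0% in all 2544 protein-coding genes with at least 5 peaks (SD 25.3). The last 20% held 18.7% in pore genes, 11.2% in importin genes, 12.1% in exportin genes, 30.5% in Ran-binding protein genes and 13.2% in all protein-coding genes. The SDs between genes are far wider than the differences between pore and importin genes, and the groups were not tested against each other. For Ran-binding protein genes the lean to the 3′ end depends on counting genes equally: with their peaks pooled, 14.5% lay in the last 20% and 28.6% in the first 20%. With narrower peaks than the median left out, these genes had 20.3% in the last 20% and 22.7% in the first 20%. The last 20% of importin genes held 5.47% when only peaks in no other gene were counted. The first 20% held more than the last 20% in 7 of 13 pore genes, 7 of 11 importin genes, 4 of 4 exportin genes and 2 of 5 Ran-binding protein genes. The last 20% held more in 4 pore genes, in no importin or exportin gene and in 3 Ran-binding protein genes.

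The pore mean depended on Nup210l, with all of its peaks at 1 end. Its strand is not known here, so that end counts as the first 20% only because the gene was read by its peaks. Without it pore genes had 22.6% in the first 20% and 20.2% in the last 20%. In pore genes with an annotated strand the shares were 24.4% and 23.6%. In genes with an annotated strand only, all members together had 28.0% in the first 20% and 20.4% in the last 20% (23 genes), against 25.7% and 13.1% over all such protein-coding genes (2059 genes). The 5 Ran-binding protein genes are also few, and Ranbp17 alone held 32.7% of its peaks in the first 20% while Ranbp2 and Ranbp9 held none there. For distance, the peaks of genes with at least 5 peaks were pooled within each group. The median peak lay 21.5 kb from the 5′ end in pore genes, 14.6 kb in importin genes and 17.4 kb in exportin genes. It lay at 76.5 kb in Ran-binding protein genes, where 168 of the 227 peaks were in Ranbp17, of 302 kb. Over all protein-coding genes with at least 5 peaks it lay at 16.1 kb. Distances depend on gene length, which differs between these groups.

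**Figure D4:**
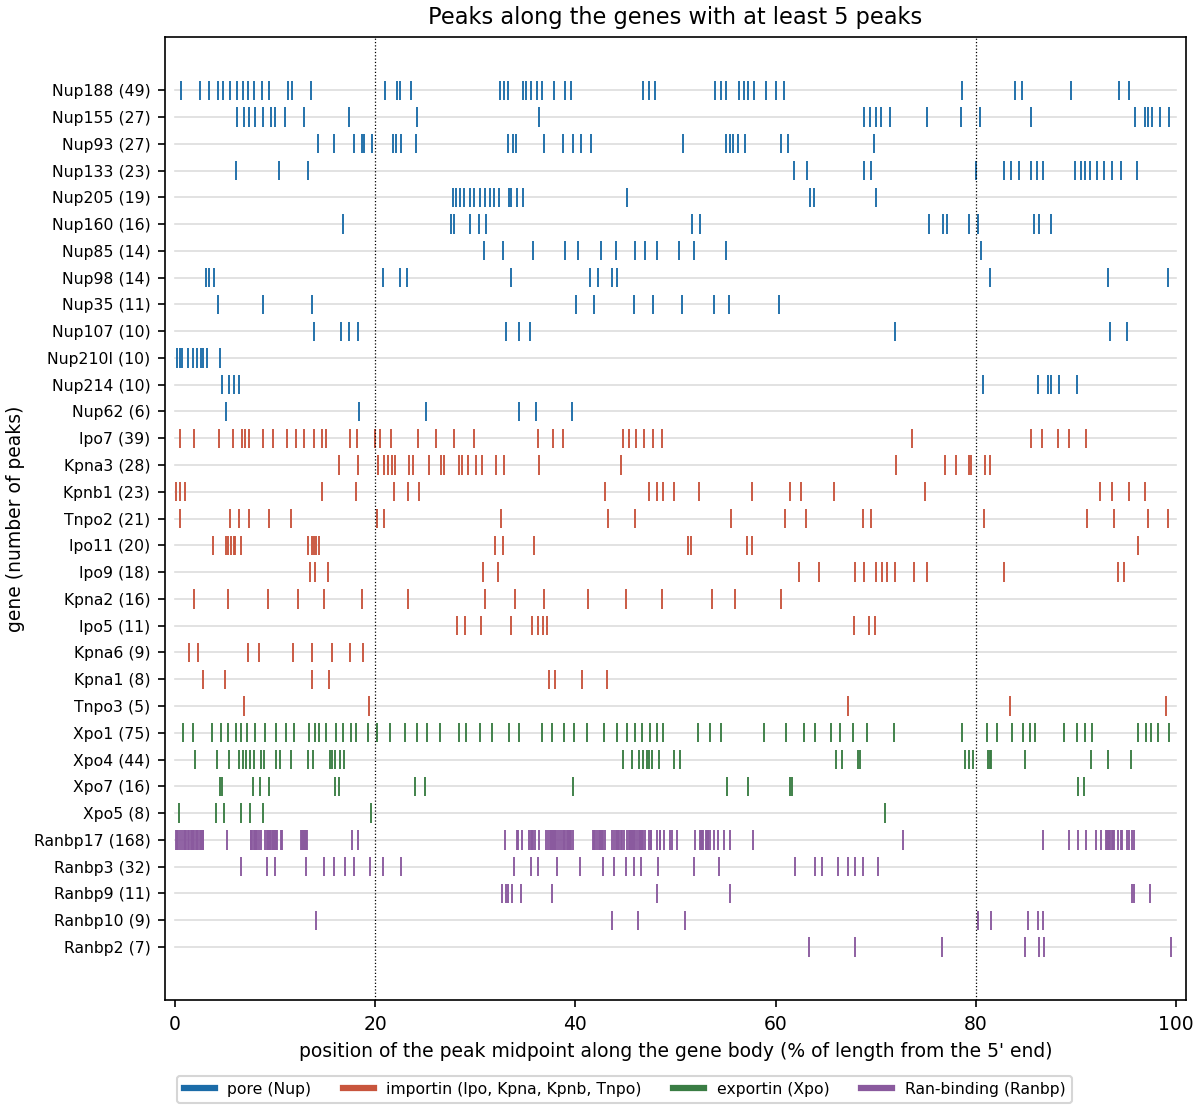
Each tick is a peak midpoint along the gene body, in % of the length from the 5′ end, for the 33 genes with at least 5 peaks; the number of peaks is in brackets and dotted lines mark 20% and 80%. Peaks come in blocks with empty stretches between them, as in Nup205, Nup214 and Ranbp17, while those of Xpo1 run along the whole gene.

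**Figure D5:**
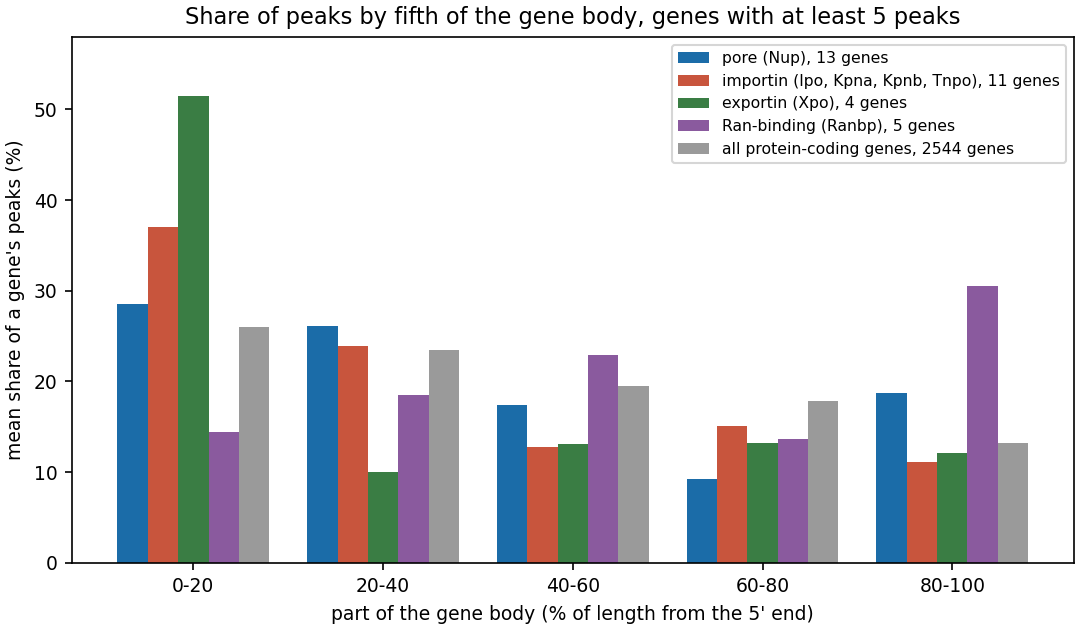
Mean share of a gene's peaks in each 20% of the gene body, for genes with at least 5 peaks, each gene counting equally; the number of genes is in the legend. Exportin genes had 51.5% in the first 20%, pore genes 28.6% (22.6% without Nup210l) and all protein-coding genes 26.0%. Ran-binding protein genes had 30.5% in the last 20%, but 14.5% with their peaks pooled.

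Around the listed transcription starts, peaks were found in some importin and exportin genes and in no pore gene. The RefSeq promoter table gives windows of 300 bases, 250 before to 50 after a start, for 40 of the 51 genes. A peak on the same strand overlapped a window in 0 of 17 pore genes, 4 of 14 importin genes (Ipo5, Ipo7, Kpnb1 and Tnpo2), 2 of 3 exportin genes (Xpo1 and Xpo5) and 0 of 6 Ran-binding protein genes, where the share over 17492 protein-coding genes was 2.0%. These shares count genes with and without a peak in the body: 34 of the 40 genes held one, against 4051 of the 17492. This pattern was seen while the data were being described, and the numbers are small. The next shares count only genes with a sense peak and a known strand. A sense peak lay within 1 kb of the 5′ end in 3 of 15 pore genes (Nup153, Nup188 and Nup62), 4 of 12 importin genes, 3 of 3 exportin genes and 1 of 4 Ran-binding protein genes, against 21.6% of all such protein-coding genes. Within 5 kb it was 8 of 15 pore genes and 5 of 12 importin genes, against 52.6%. The 5′ end here is the edge of the gene body. In Ipo5 the listed starts lie inside it, at 14.4 and 19.0 kb, and a sense peak lay 0.047 kb from a listed start. Ipo5 is still counted as without a peak near the 5′ end, and with 0% of its peaks in the first 20%.

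The windows with the most bases under a peak are shown beside that of Nup188, the pore gene with the most peaks, from RefSeq on GRCm38.p6, each 5′ to 3′ on the strand of its gene. Capitals mark bases under a DHX9 peak of the same strand.
Xpo1, chr11:23255791-23256090, plus strand: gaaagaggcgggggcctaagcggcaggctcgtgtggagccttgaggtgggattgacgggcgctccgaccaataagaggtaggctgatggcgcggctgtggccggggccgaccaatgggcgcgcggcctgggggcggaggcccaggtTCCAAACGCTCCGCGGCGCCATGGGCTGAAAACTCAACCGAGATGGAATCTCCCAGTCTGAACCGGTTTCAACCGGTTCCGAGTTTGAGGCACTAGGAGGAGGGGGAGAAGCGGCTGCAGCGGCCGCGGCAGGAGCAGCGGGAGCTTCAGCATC
Kpnb1, chr11:97187843-97188142, minus strand: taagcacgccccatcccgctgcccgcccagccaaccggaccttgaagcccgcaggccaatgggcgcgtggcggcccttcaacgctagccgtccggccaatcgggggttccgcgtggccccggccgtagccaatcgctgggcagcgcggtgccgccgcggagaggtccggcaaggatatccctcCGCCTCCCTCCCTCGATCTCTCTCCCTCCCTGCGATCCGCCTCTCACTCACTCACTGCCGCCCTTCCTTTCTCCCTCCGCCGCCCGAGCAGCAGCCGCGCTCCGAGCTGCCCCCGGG
Tnpo2, chr8:85036936-85037235, plus strand: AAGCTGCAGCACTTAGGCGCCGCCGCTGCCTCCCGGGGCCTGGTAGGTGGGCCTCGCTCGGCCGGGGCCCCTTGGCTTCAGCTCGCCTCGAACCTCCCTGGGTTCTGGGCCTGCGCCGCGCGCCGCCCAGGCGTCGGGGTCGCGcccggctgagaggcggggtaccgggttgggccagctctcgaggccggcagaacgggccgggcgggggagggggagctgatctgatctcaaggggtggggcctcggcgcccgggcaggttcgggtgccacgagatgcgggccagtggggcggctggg
Ipo5, chr14:120915597-120915896, plus strand: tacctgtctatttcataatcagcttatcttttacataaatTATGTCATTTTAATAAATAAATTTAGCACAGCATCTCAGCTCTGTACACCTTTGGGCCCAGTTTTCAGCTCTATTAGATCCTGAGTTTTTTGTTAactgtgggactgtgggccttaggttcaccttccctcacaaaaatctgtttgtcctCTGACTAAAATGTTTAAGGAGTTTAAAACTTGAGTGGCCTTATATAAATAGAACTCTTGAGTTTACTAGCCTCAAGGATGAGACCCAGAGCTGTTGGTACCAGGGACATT
Nup188, chr2:30286166-30286465, plus strand: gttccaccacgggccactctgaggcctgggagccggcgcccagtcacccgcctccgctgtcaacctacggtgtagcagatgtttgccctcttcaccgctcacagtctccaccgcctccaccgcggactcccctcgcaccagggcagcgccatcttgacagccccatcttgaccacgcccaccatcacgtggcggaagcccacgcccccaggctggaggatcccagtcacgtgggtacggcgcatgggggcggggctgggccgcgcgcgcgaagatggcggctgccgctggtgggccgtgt
In Xpo1 the last 154 bases of the window were under 1 peak that ran on to 23256534, and 66.3% of the window was G or C. In Kpnb1 the last 117 bases were under a peak, so that it began before the listed start; its window was 72% G or C. In Tnpo2 the first 144 bases of the window at its downstream start were under a peak, which also covered 56 bases at its other listed start, and 8 further peaks lay in the 5 kb before the gene in no annotated gene. The Ipo5 window, at a start 19.0 kb inside the gene, was of another kind: 2 peaks covered 205 of its bases, and it was 37.7% G or C with no CpG. A second Ipo5 start lies at 14.4 kb, and the first peak of Ipo5 lay at 14.4 kb as well. Nup188, whose first peak midpoint lay 0.316 kb from the 5′ end, had no base under a peak in its window, which was 70% G or C. Over all protein-coding windows the median was 56.3% G or C, and over those under a peak 63.7%.

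Peaks lay almost entirely on the strand of the gene. In the 34 genes with a peak and a known strand, 646 of 647 peaks were sense. The share of antisense peaks was 0.155% (95% interval 0.0273 to 0.870%), against 2.01% over all protein-coding genes (1.89 to 2.14%). These intervals take the peaks as independent, although many come from the same gene. By gene, 1 of the 34 held an antisense peak, against 322 of 4051 protein-coding genes with a peak and a known strand. Pore genes had 0 antisense peaks of 212, importin genes 1 of 161, exportin genes 0 of 87 and Ran-binding protein genes 0 of 187. The antisense peak was in Kpnb1 (chromosome 11, 97187673 to 97187836), 0.138 kb from the 5′ end, and 93 of its bases were also under the sense peak at the start. In the 11 genes without a known strand, 1 of 183 peaks was on the minority strand, in Xpo4 (chromosome 14, 57666327 to 57666469), 1.83 kb from the 5′ end. These genes were read by the strand of most of their peaks, so this count cannot tell sense from antisense. Counting only peaks in no other gene, the antisense share was 0.164% in the set and 0.989% over all protein-coding genes.

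Some peaks shared their place with another gene, on the same or the opposite strand. Of the 830 peaks, 41 (4.94%) also lay in another gene body, against 6.83% over all protein-coding genes. The share was above that level in pore genes, with 28 peaks (11.2%), and below it in the others, with 10 in importin genes (4.85%), 1 in exportin genes (0.680%) and 2 in Ran-binding protein genes (0.877%). In Nup160 8 of 16 peaks also lay in Gm39872, a long noncoding RNA gene of the opposite strand, and in Nup133 7 of 23 lay in LOC115486976, a noncoding gene whose strand is not in the tables. All 6 peaks of Nup62 lay in Il4i1b, which is annotated on the same strand, and both peaks of Nup43 lay in Pcmt1, which is annotated on the minus strand while the peaks were on the plus strand. Counting only peaks in no other gene, 17 of 21 pore genes (81.0%) and 15 of 17 importin genes (88.2%) held one, which reverses the order of these groups. This count ignores strand, so it also drops peaks on the strand opposite to the other gene, as in Nup43, Nup160 and Tnpo2. The genes held 13 small RNA genes, of which 4 were overlapped by a peak: 3 of 6 snoRNA genes, 1 guide RNA gene in Kpna4, 0 of 3 microRNA genes and 0 of 3 snRNA genes. Mir693 inside Xpo5 and Mir138-2 inside Nup93 were not under a peak.

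Peaks were of ordinary width. The median was 192 bases in the set (quartiles 143 and 262) and 197 over all protein-coding genes (147 and 268). It was 192 in pore genes, 178.5 in importin genes, 215 in exportin genes and 192 in Ran-binding protein genes. Among the exportin genes, Xpo1 had a median of 270 bases and a widest peak of 598, and Xpo4 a median of 187. On the same strand, with the gaps of each group pooled, neighbouring peaks of a gene were a median of 331.5 bases apart in pore genes and 343.5 in importin genes. The median was 193 in exportin genes and 243 in Ran-binding protein genes, against 248 over all protein-coding genes. By gene it was 124.5 in Xpo1, but 259 in Xpo4, 374 in Xpo5, 1962 in Xpo7 and 16826 in Xpo6. Beyond the 3′ end, 14 peaks of 5 genes lay within 5 kb in no annotated gene: 6 after Xpo1, 4 after Kpna2, 2 after Ranbp1 and 1 each after Nup155 and Ranbp2.

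Many genes of the same pathway under other symbols held peaks too. Of 29 such genes, 23 held at least 1, where the share over all protein-coding genes was 22.8%; they held 300 in all, with a median of 6. Among further pore genes, Ndc1, a membrane anchor of the pore, held 62 (1.28 per kb), more than any Nup gene. Ahctf1, which encodes the protein ELYS that seeds pore assembly on chromatin, held 30, Pom121 17, Tpr of the basket 13 and Aaas 12. Sec13 held none. Nupl1, now named Nup58, held 1 and Nupl2, now named Nup42, held none; with both counted, 20 of 23 pore genes (87.0%) held a peak. In the Ran cycle, Nutf2, the import factor of Ran, held 36 in 19.9 kb (1.81 per kb), Rangap1 29, the nucleotide exchange factor gene Rcc1 6 and Ran itself 2. Among the other receptors, Cse1l, which returns importin alpha to the cytoplasm, held 23, the mRNA exporter gene Nxf1 7 and the tRNA exporter gene Xpot 6. The mRNA export list held 35 peaks in 6 of 8 genes, with 10 at most.

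Location on the genome went with part of these numbers. The 6 genes on chromosome 11 (Ranbp17, Xpo1, Kpnb1, Kpna2, Nup85 and Nup88) held 297 peaks, 35.8% of the 830, with a median of 19.5, and the 4 on chromosome 8 held 80, with a median of 22. The 41 genes elsewhere held 453, with a median of 8. A peak was present in 6 of 6, 4 of 4 and 35 of 41 of them, against 29.3%, 32.2% and 21.7% of all protein-coding genes on these chromosomes. The part of the chromosome in the numbers of Xpo1 and Ranbp17 was not tested.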

How the data were processed

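Per the labels' protocols, DHX9 and IgG pulldowns (2 samples each) were crosslinked, barcoded, mixed and sequenced as read pairs; random tags served to merge PCR duplicates. The submitters' processing notes name Bowtie2 2.2.6 and the builds hg19 and mm10. Per the file's columns, the authors called the peaks with PEAKachu. The sources used here give neither its version nor its settings, and the depth is unknown. The deposited list has no other unit than base positions, and no score.

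Gene bodies came from a RefSeq table of GRCm38.p6, and strands and start windows from the RefSeq promoter table. A peak was given to every gene body that held its midpoint, on either strand. Gene groups are by symbol. The members, lists and measures were chosen with earlier results of these data known. All members are named. Counts were made in Python 3.11.15 with pandas 2.3.3 and scipy 1.17.1. Peak assignment, strand and position were tested on simulated data. No p-value is given, since the list holds no replicate. Exons and introns were not analysed here. Alternatives were any overlap, merging within 50 bases, sense peaks, peaks in no other gene, peaks of at least 196 bases (the median width), at least 3 peaks, groups by role, pooled peaks and leaving out Ranbp17. Those chosen after seeing the data left out chromosomes 8 and 11, Nup210l or genes without a known strand, or added Nupl1 and Nupl2.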

Additional observations from a re-analysis of the deposited data

How the results depend on the processing

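No paired analysis was possible because the series has 1 deposited list, which carries no value per replicate; for the same reason no replicate could be left out. Of 132 values recomputed for the shares, peak totals, first-20% shares and the antisense share, 106 stayed within the 95% counting interval of the reported share or within 1.5 times the reported total. For the first-20% shares, which are means over genes, that interval was computed as if peaks were the units. It does not cover the spread between genes. For the gene shares the interval is wide in small groups, as in exportin genes with 56.6 to 100%. With at least 3 peaks required, the share fell from 90.5 to 71.4% in pore genes and from 88.2 to 70.6% in importin genes. Both count as within the interval, so the count of 106 is no measure of how stable the values are. With narrower peaks than the median left out, 74.5% of all members held a peak, and totals were 121 in pore, 85 in importin, 83 in exportin and 112 in Ran-binding protein genes and 401 in all; the first 20% then held 29.5% in importin, 43.4% in exportin and 22.7% in Ran-binding protein genes and 28.8% in all members, and the antisense share was 0%. With at least 3 peaks required, 72.5% of all members were counted. With Ranbp2, Ranbp6 and Ranbp17 placed by role, exportin genes held 315 peaks and the remaining Ran-binding protein genes 53. Without Ranbp17 the Ran-binding protein genes held 60 peaks, and 9.81% in the first 20%. With all peaks pooled, the first 20% held 39.2% in exportin and 28.6% in Ran-binding protein genes. Without chromosomes 8 and 11, totals were 72 in exportin genes, 51 in Ran-binding protein genes and 453 in all, the first 20% held 9.38% in Ran-binding protein genes and 35.9% in all members, and the antisense share was 0%. Without Nup210l the first 20% held 22.6% in pore genes, and with annotated strands alone 28.0% in all members. The cause of these shifts was not tested. The first 20% held less in pore than in importin genes in all 9 settings that gave both, the reported one included. Pore minus importin lay between -8.52 and -3.09 percentage points, and leaving out Nup210l widens this difference. These settings recount the same genes and much the same peaks, so they are not independent of each other. The difference is smaller than the SDs between genes, 25.7 in pore and 27.8 in importin genes. Of 82 other recomputed values (densities and last-20% shares), 13 moved. Distance in kb stands in the report as its own value. As the depth is unknown, a gene without a peak cannot be called unbound.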
